A study of Mus musculus with 8 samples.

Results

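The 10 genes described here encode transcription factors that specify heart muscle: Gata4, Gata6, Nkx2-5, Tbx5, Tbx20, Mef2a, Mef2c, Hand2, Irx4 and Srf. They were chosen by name, with earlier results of these data known. Each was read through 1 of the probe sets annotated to that gene alone, namely the brightest on average across the 8 arrays. All 10 passed the filter on low values, a log2 value above 5 in at least 4 of the 8 arrays, and they stand among 9608 genes that did. Each sample was ventricular RNA on 1 Affymetrix mouse genome array, and the labels do not say whether it came from 1 mouse or several, so the p-values measure the spread between these samples. The first group was 4 samples from mice carrying a CHF1/Hey2 transgene that the mlc2v promoter drives in the myocardium, and the second was 4 samples from wild-type mice. All came from males of an FVB background, 8 to 12 weeks old, and all had undergone ascending aortic banding, which narrows the aorta near the heart and loads the ventricle with pressure, 1 week before. No unbanded heart enters these comparisons, so nothing below measures the response to banding itself. The values are log2 units on which 1 unit is a doubling, and arrays give no read depth, so the number of arrays limits the precision.

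These factors act as a network. GATA4 and GATA6 are zinc finger proteins, NKX2-5 and IRX4 carry homeodomains, TBX5 and TBX20 carry T-boxes, HAND2 is a basic helix-loop-helix protein, and MEF2A, MEF2C and SRF share the MADS box, a domain that binds AT-rich sites. They bind together at the enhancers of contractile and natriuretic peptide genes, and GATA4, MEF2 proteins and SRF are known to drive growth genes in the pressure-loaded adult ventricle. CHF1/Hey2, the repressor encoded by the transgene, is known to bind GATA4 and to dampen its activity, which is the question that a comparison of their transcripts touches.

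Promoter windows of the 250 bases before the gene start were taken from RefSeq (build GRCm38.p6) for 7 of the 10 genes: Nkx2-5, Tbx20, Mef2a, Mef2c with 3 windows, Hand2, Irx4 and Srf. They were searched on both strands for the CArG box that SRF binds, the MEF2 site, the GATA-type word AGATAA, the NKX2-5 core AAGTG and the T-box word AGGTGT, found in 1.47%, 2.92%, 9.99%, 40.7% and 11.8% of 32851 such windows. No site of HAND2 or IRX4 was searched for, and Gata4, Gata6 and Tbx5 had no window. The windows of Srf and Hand2 are shown. Srf was the 1 member whose window held a searched site of its own protein. Hand2 was the 1 member whose window held the GATA-type word. Capitals mark these matches. The Srf window lies at chr17:46556163-46556412 on the minus strand and the Hand2 window at chr8:57320733-57320982 on the plus strand.
Srf: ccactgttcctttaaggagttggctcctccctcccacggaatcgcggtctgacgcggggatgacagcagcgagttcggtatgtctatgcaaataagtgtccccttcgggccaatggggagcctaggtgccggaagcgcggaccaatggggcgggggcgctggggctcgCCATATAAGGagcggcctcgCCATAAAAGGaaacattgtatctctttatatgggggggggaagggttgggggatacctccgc
Hand2: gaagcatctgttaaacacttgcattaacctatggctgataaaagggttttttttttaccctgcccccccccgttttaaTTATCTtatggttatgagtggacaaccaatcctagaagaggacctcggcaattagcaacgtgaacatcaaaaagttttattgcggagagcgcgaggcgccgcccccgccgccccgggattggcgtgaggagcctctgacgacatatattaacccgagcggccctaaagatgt

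With -1 as the base just before the gene start, the CArG boxes of Srf span -82 to -73 and -62 to -53, and the GATA-type word of Hand2, which lies on the opposite strand and reads TTATCT as printed, spans -172 to -167. The core AAGTG occurred once each in the windows of Srf and Hand2 and in all 3 windows of Mef2c, and the word AGGTGT once in 1 window of Mef2c, none of them overlapping another match. A match is a description of these letters and says nothing about binding in these hearts.

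Certain arrays stood apart before any comparison was made. Transgenic replicate 2 lay over 1 log2 unit from the median of the other arrays for 37.2% of the 9608 genes and transgenic replicate 3 for 9.27%, against 0.749% to 1.55% in the remaining 6 arrays. Transgenic replicate 2 was the lowest or the highest of the 8 arrays for 77.8% of genes. Control probe sets at both ends of the Gapdh and Actb transcripts give a sign of RNA integrity. The 3′ minus 5′ difference of Gapdh was between -0.27 and -0.19 in the 4 transgenic arrays, against -0.28 to -0.11 in the 4 wild-type arrays, and that of Actb between 0.62 and 1.13 against 0.78 and 1.21. Transgenic replicate 2 had the lowest Actb difference of the 8. Heart muscle markers were present in every array, with the ventricular light chain Myl2 at 15.17 ± 0.06 in transgenic and 15.15 ± 0.03 in wild-type hearts (SD, n = 4 each). Hey2 itself was at 5.96 ± 0.24 in transgenic and 6.07 ± 0.47 in wild-type hearts, and the labels do not say whether its probe set reads the transgene, so it gives no check of the genotypes and the groups are called as labelled throughout.

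None of the 10 factors differed between transgenic and wild-type hearts beyond the spread between samples. With limma and Benjamini-Hochberg adjustment over all genes, 0 of the 10 were called (adjusted p between 0.813 and 0.825), beside 0% of the 9608 genes. The unadjusted limma p was under 0.05 for 0 of 10 as well, beside 1.59% of all genes, and the groups did not overlap for 0 of 10, beside 2.48% of all genes. Gata4, Nkx2-5, Tbx5, Hand2, Irx4 and Srf had a higher mean in transgenic hearts and Gata6, Tbx20, Mef2a and Mef2c a lower one. That is 6 of 10 higher, beside 57.0% of all genes, with a median difference of 0.31 over the 10 and 0.06 over all genes. The 95% confidence intervals are wide: that of Tbx20 runs from -1.94 to 0.69 and that of Nkx2-5, the narrowest of the 10, from -0.12 to 0.80.

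**Figure D1:**
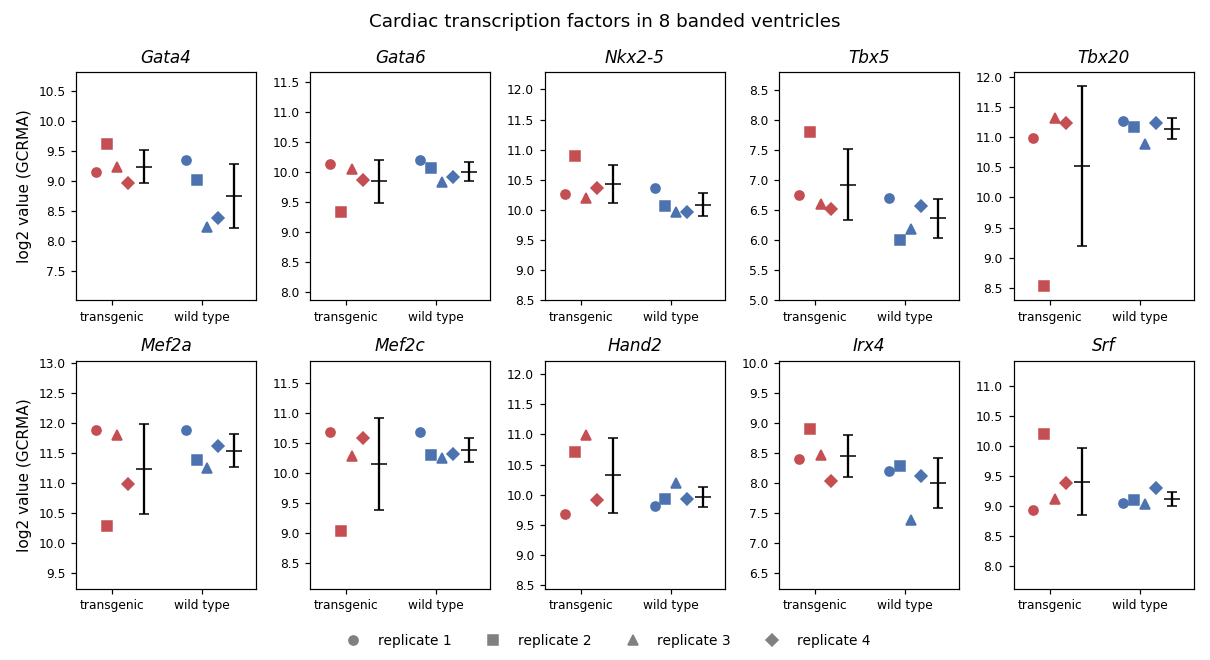
Log2 values of the 10 factors, 1 panel each with a vertical axis spanning the same number of log2 units; points are arrays (4 transgenic at left, 4 wild type at right, marker shape giving the replicate number) and black bars the group mean ± SD. The square of transgenic replicate 2 is the lowest point for Gata6, Tbx20, Mef2a and Mef2c and the highest for Gata4, Nkx2-5, Tbx5, Irx4 and Srf.

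Gata4, the zinc finger factor with which CHF1/Hey2 is known to interact, was at 9.16, 9.62, 9.24 and 8.96 log2 units in transgenic replicates 1 to 4, against 9.36, 9.03, 8.24 and 8.39 in wild-type replicates 1 to 4. All 4 transgenic values lay above the wild-type mean, but wild-type replicates 1 and 2 lay within the transgenic range, and wild-type replicates 3 and 4 were the low ones. The difference was 0.49 (SE 0.282, 95% confidence interval -0.15 to 1.14; limma adjusted p = 0.813; two-sided exact permutation p = 0.200, 0.0286 being the lowest that 4 against 4 can reach). Its other probe set, at a lower level, gave 7.75, 8.57, 7.80 and 7.13 in transgenic against 7.72, 7.51, 5.20 and 6.59 in wild-type hearts. There the difference was 1.06, again with wild-type replicate 3 farthest down. Without that array the difference of the probe set used for Gata4 was 0.32, and without transgenic replicate 2 it was 0.37.

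Gata6, the second GATA factor of heart muscle, had a slightly lower mean in transgenic hearts by the probe set used. It gave 10.13, 9.32, 10.05 and 9.87 in transgenic hearts, against 10.19, 10.07, 9.84 and 9.91 in wild-type hearts. Transgenic replicate 2 was the lowest of the 8 and the other 3 transgenic values lay inside the wild-type range. The difference was -0.16 (SE 0.212, 95% confidence interval -0.64 to 0.32; limma adjusted p = 0.816), and without transgenic replicate 2 it was 0.01. Another probe set that passed the filter differed by 0.08, or by 0.26 without transgenic replicate 2, and was lowest in wild-type replicate 3. The last one, at 3.80 ± 0.30 and 3.88 ± 0.04 in transgenic and wild-type hearts, stayed below the filter in every array.

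The homeodomain genes both had a higher mean in transgenic hearts, with groups that overlapped and differences that did not pass the test. Nkx2-5, which opens much of the cardiac program, gave 10.26, 10.89, 10.19 and 10.36 in transgenic hearts, against 10.35, 10.06, 9.97 and 9.96 in wild-type hearts. Wild-type replicate 1 reached into the transgenic range and all 4 transgenic values lay above the wild-type mean. The difference was 0.34 (SE 0.202; limma adjusted p = 0.813; exact permutation p = 0.0857, the smallest among the 10), and 0.19 without transgenic replicate 2. Nkx2-5 has 1 probe set on the array, so no second reading exists.

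Irx4, which is restricted to ventricles and represses atrial genes there, gave 8.41, 8.89, 8.47 and 8.04 in transgenic hearts, against 8.20, 8.28, 7.39 and 8.13 in wild-type hearts. Wild-type replicate 3 was the low one of the 8, and transgenic replicate 4 lay below the other 3 wild-type values. The difference was 0.45 (SE 0.262, 95% confidence interval -0.14 to 1.05; limma adjusted p = 0.813; exact permutation p = 0.143). It was 0.25 without wild-type replicate 3 and 0.31 without transgenic replicate 2. Irx4 also has a single probe set.

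The T-box genes had mean differences of opposite sign, and transgenic replicate 2 lay farthest from the wild-type mean in both. Tbx5, known to be stronger in atria and the left ventricle, gave 6.75, 7.79, 6.60 and 6.52 in transgenic hearts, against 6.69, 5.997, 6.18 and 6.55 in wild-type hearts. Transgenic replicate 2 lay 1.44 above the wild-type mean and the other 3 transgenic arrays 0.16 to 0.39 above it. The difference was 0.56 (SE 0.311, 95% confidence interval -0.15 to 1.27; limma adjusted p = 0.813; exact permutation p = 0.143), a 1.47-fold difference, and 0.27 without transgenic replicate 2.

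Tbx20, a T-box factor that keeps adult myocytes functional, gave 10.99, 8.53, 11.32 and 11.25 in transgenic hearts, against 11.27, 11.17, 10.90 and 11.25 in wild-type hearts. Transgenic replicate 2 lay far below every other array, the next lowest being 10.90 in wild-type replicate 3, and the other 3 transgenic values overlapped the wild-type values. The difference was -0.63 (SE 0.578; limma adjusted p = 0.813; exact permutation p = 0.657), and 0.04 without that array. Its second probe set that passed showed the same array apart, at 7.72, 5.33, 7.52 and 7.55 in transgenic against 7.88, 7.79, 6.78 and 7.18 in wild-type hearts. The last one stayed at 4.25 ± 0.06 in transgenic and 4.63 ± 0.49 in wild-type hearts and did not pass the filter.

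Of the MADS-box genes, the MEF2 members had a lower mean in transgenic hearts and Srf a higher one. Mef2a, the main MEF2 gene of the adult heart, gave 11.89, 10.29, 11.79 and 10.98 in transgenic hearts, against 11.89, 11.39, 11.26 and 11.62 in wild-type hearts. Transgenic replicates 2 and 4 were the lowest of the 8 and replicates 1 and 3 lay at the top with wild-type replicate 1. The difference was -0.30 (SE 0.361, 95% confidence interval -1.12 to 0.52; limma adjusted p = 0.813), and 0.02 without transgenic replicate 2. All 5 probe sets of Mef2a that passed differed in the same direction, by -0.48 to -0.30, and all 5 placed transgenic replicate 2 below the wild-type mean, by differences of -1.72 to -1.25.

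Mef2c, the MEF2 gene of early heart development, gave 10.67, 9.03, 10.28 and 10.58 in transgenic hearts, against 10.68, 10.29, 10.25 and 10.31 in wild-type hearts. Transgenic replicate 2 was alone at the bottom and the remaining 7 arrays lay within 10.25 to 10.68. The difference was -0.24 (SE 0.355, 95% confidence interval -1.05 to 0.57; limma adjusted p = 0.825), and 0.13 without that array. Its 5 probe sets, all of which passed, differed by -0.43 to -0.04 and placed transgenic replicate 2 at -1.81 to -0.93 relative to the wild-type mean.

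Srf, the factor that binds CArG boxes and whose own window holds 2 of them, gave 8.92, 10.19, 9.12 and 9.38 in transgenic hearts, against 9.04, 9.09, 9.02 and 9.29 in wild-type hearts. Transgenic replicate 2 lay 1.07 above the wild-type mean, transgenic replicate 1 was the lowest of the 8, and the wild-type arrays were close together (SD 0.12). The difference was 0.29 (SE 0.272, 95% confidence interval -0.33 to 0.91; limma adjusted p = 0.813), and 0.03 without transgenic replicate 2. The other probe set of Srf gave 7.28, 8.19, 7.65 and 7.59 in transgenic against 7.32, 7.45, 7.34 and 7.27 in wild-type hearts, a difference of 0.33, or 0.16 without transgenic replicate 2.

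Hand2, a helix-loop-helix factor needed for the embryonic ventricle and in the adult also expressed outside myocytes, was highest of the 8 arrays in transgenic replicate 3, as Tbx20 was. It gave 9.67, 10.70, 10.99 and 9.91 in transgenic hearts, against 9.81, 9.92, 10.20 and 9.92 in wild-type hearts. Transgenic replicates 2 and 3 lay above every wild-type array, and replicate 1 below every one. The difference was 0.36 (SE 0.302, 95% confidence interval -0.33 to 1.04; limma adjusted p = 0.813), and -0.17 without transgenic replicates 2 and 3. A second probe set had the same 2 arrays on top, with 7.59 and 7.71 in transgenic replicates 2 and 3, 6.64 and 6.91 in transgenic replicates 1 and 4, and between 6.37 and 7.04 in wild-type hearts.

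**Figure D2:**
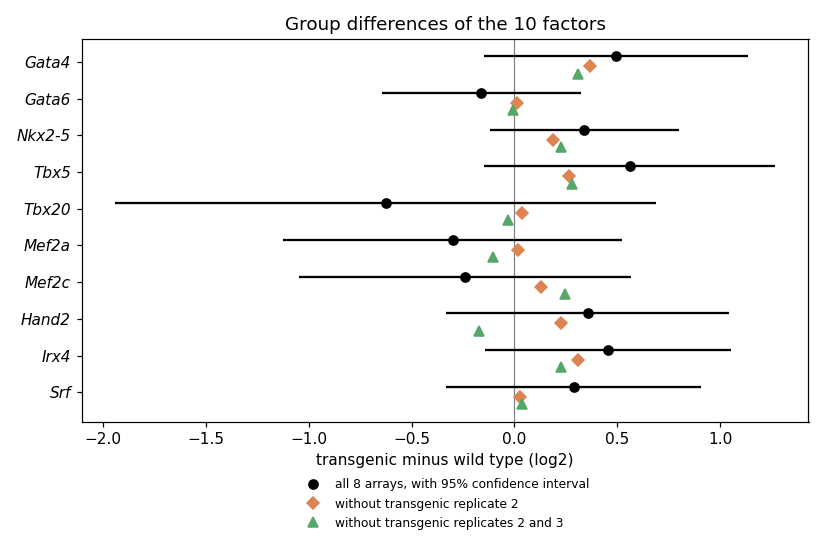
Difference of each factor, transgenic minus wild type in log2 units, with its 95% confidence interval over all 8 arrays (circles and lines), without transgenic replicate 2 (diamonds) and without transgenic replicates 2 and 3 (triangles). All 10 intervals include 0, and without transgenic replicate 2 the 10 differences lie between 0.01 and 0.37.

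Transgenic replicate 2 split the factors in opposite directions. Relative to the wild-type mean it was higher by 1.44 for Tbx5, 1.07 for Srf, 0.89 for Irx4, 0.87 for Gata4, 0.80 for Nkx2-5 and 0.74 for Hand2. It was lower for the other 4, at -0.68 for Gata6, -1.25 for Mef2a, -1.35 for Mef2c and -2.62 for Tbx20. This array was thus the lowest of the 8 for 4 factors and the highest for 5, that is for 9 of 10, beside 77.8% of all genes. The 10 genes have 28 probe sets, 23 of which passed the filter, and in each of the 7 genes with several that passed, all of them lay on the same side of the wild-type mean in transgenic replicate 2. The same held for 78.1% of the 4051 genes with at least 2 such probe sets.

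**Figure D3:**
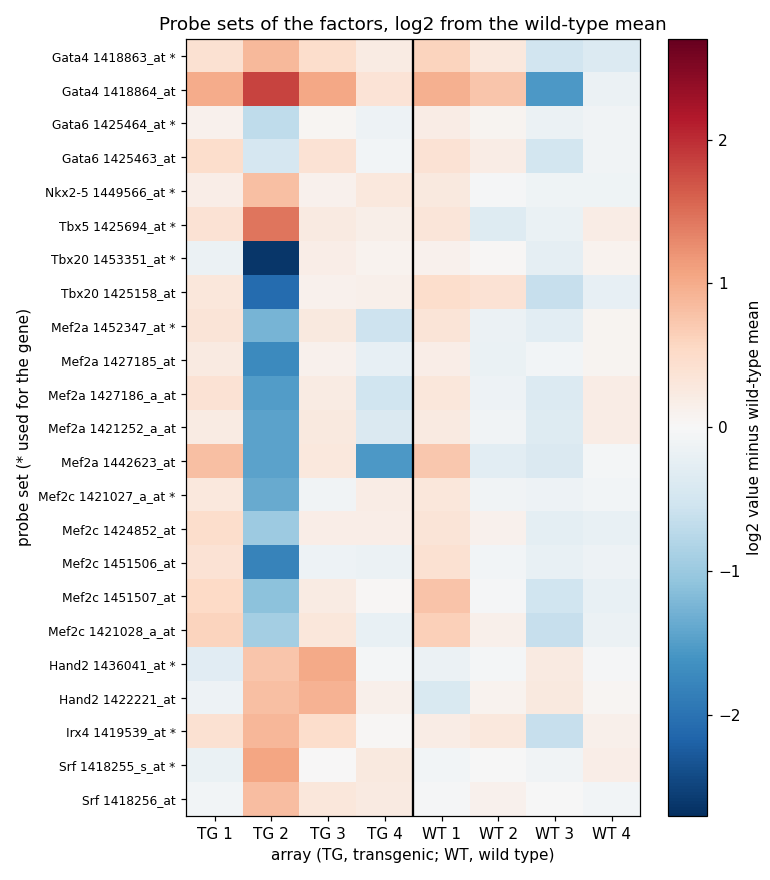
The 23 probe sets of the 10 factors that passed the filter (rows, an asterisk marking the one used for the gene) in the 8 arrays (columns, 4 transgenic then 4 wild type), coloured by log2 value minus the wild-type mean. The column of transgenic replicate 2 is above the wild-type mean in 9 rows and below it in 14, and rows of the same gene share a colour there.

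With transgenic replicate 2 left out, all 10 factors had a mean above wild type, beside 55.9% of all genes. For Gata6, Mef2a, Srf and Tbx20 the difference was only 0.01, 0.02, 0.03 and 0.04. Another probe set of Mef2a that passed the filter was at -0.15. Of the heart muscle markers 10 of 10 were higher too, with a median difference of 0.05. That count was 7 of 8 for endothelial, 4 of 6 for atrial and 2 of 7 for smooth muscle and pericyte markers. It was 0 of 9 for fibroblast and 0 of 8 for macrophage markers, whose medians were both lowest in transgenic replicate 3. The part of these differences in the factors' count was not tested. The sizes were small, from 0.01 for Gata6 to 0.37 for Gata4, with a median of 0.16 over the 10 and 0.03 over all genes, and 0 of the 10 were called or had an unadjusted p under 0.05 (smallest limma adjusted p among them 0.945). Without transgenic replicates 2 and 3 the count was 6 higher and 4 lower, beside 65.3% of all genes higher. Over all 8 arrays, Gata4, Nkx2-5, Tbx5 and Irx4 were the 4 factors of which every transgenic array lay above the wild-type mean, beside 13.7% of all genes. Their smallest single differences from it were 0.21 for Gata4, 0.11 for Nkx2-5, 0.16 for Tbx5 and 0.04 for Irx4.

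The wild-type hearts also differed among themselves. Wild-type replicate 3 was the lowest wild-type array for 7 of the 10 factors, the exceptions being Nkx2-5, Tbx5 and Hand2, where 24.6% of all genes had their lowest wild-type value in it. This array was singled out after its values were seen. Relative to the mean of the other 3 wild-type arrays it was at -0.69 for Gata4, -0.82 for Irx4 and 0.31 for Hand2. The SD over the 4 arrays was larger in transgenic than in wild-type hearts for 8 of 10 factors, beside 89.1% of all genes, and Gata4 and Irx4 were the 2 with the larger SD in wild type, at 0.28 against 0.53 and at 0.35 against 0.41. Without transgenic replicate 2 the SD was larger in transgenic hearts for 5 of 10, beside 63.6% of all genes.

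Among relatives and partners of these factors, 32 of 45 listed genes were measured, of which 18 had a higher and 14 a lower mean in transgenic hearts, with a median difference of 0.07 (0.02 without transgenic replicate 2) beside 0.06 over all genes. None was called, and 0 had an unadjusted limma p under 0.05. Tead3, a TEA-domain factor, was the 1 with the smallest p, at 6.89 ± 0.11 in transgenic and 7.20 ± 0.28 in wild-type hearts (SD, n = 4 each). Its difference of -0.32 was -0.18 without wild-type replicate 3, the highest of the 8. Tead1, the main TEA-domain factor of heart muscle, differed by -0.78 and gave 10.93, 8.24, 11.07 and 10.99 in transgenic hearts, against 10.96, 11.09, 11.15 and 11.14 in wild-type hearts. Like Tbx20 it was low in transgenic replicate 2 alone, and without that array it differed by -0.09. Ep300, an acetyltransferase that works with GATA4 and MEF2 proteins, differed by -0.43, and by -0.01 once transgenic replicate 2 was left out. For Tbx18, a T-box gene of the epicardium and sinus node, these values were -0.66 and -0.13. Mrtfb, a coactivator of SRF, differed by 0.26, Foxp1, a forkhead repressor, by -0.36, Prdm16, a zinc finger factor of compact myocardium, by 0.40, and Smyd1, a muscle methyltransferase downstream of MEF2C, by 0.29. Prdm16 was highest in transgenic replicate 3, and without that array its difference was 0.10. Without transgenic replicate 2 Mrtfb and Smyd1 differed by 0.12 and 0.15, and without transgenic replicate 3 Foxp1 by -0.18. Myocd, the muscle coactivator of SRF, differed by 0.18, and by 0.04 without transgenic replicate 3. Zfpm2, the partner of GATA4, differed by -0.05, and by 0.16 without transgenic replicate 2. Mef2d, a further MEF2 gene, differed by 0.23, or by 0.04 without transgenic replicate 2 and 0.39 without transgenic replicate 3.

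Genes that these factors are known to activate were measured in 28 of 30 cases, with 11 higher and 17 lower in transgenic hearts and a median difference of -0.07 (0.02 without transgenic replicate 2, with 17 higher). None was called, and 2 had an unadjusted limma p under 0.05. These were Myl7, the atrial regulatory light chain, at 0.71, and Kcnh2, the pore of the rapid delayed rectifier, at 0.83. Kcnh2 gave 8.64, 8.96, 8.62 and 7.99 in transgenic hearts, against 8.21, 7.45, 7.56 and 7.68 in wild-type hearts, so that transgenic replicate 4 lay below wild-type replicate 1 (limma adjusted p = 0.813; exact permutation p = 0.0571). Myh7, Nppa and Des, the slow myosin, atrial natriuretic peptide and desmin, differed by -0.54, -0.44 and -0.32, and each was lowest in transgenic replicate 3, without which they differed by -0.01, 0.09 and 0.04. Ankrd1, a stress-induced repeat protein, and Acta1, skeletal actin, differed by -0.20 and -0.18, or by -0.07 without transgenic replicate 2 and -0.02 without transgenic replicate 3. Ckm, muscle creatine kinase, differed by 0.18 and by 0.07 without transgenic replicate 2.

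Markers of other cell types also varied between arrays, and 0 were called in any list. Outside the atrial list, 0 had an unadjusted limma p under 0.05. Of 9 fibroblast markers 8 had a lower mean in transgenic hearts, with a median difference of -0.52 (-0.34 without transgenic replicate 2, with all 9 lower). Relative to the wild-type mean, their median was -0.95 in transgenic replicate 3 and -0.39 in replicate 2 of that genotype, against 0.09 and -0.14 in replicates 1 and 4. The summed level was 14.77 to 16.77 in transgenic and 16.63 to 16.85 in wild-type hearts on the log2 scale. Without transgenic replicate 3, Col1a1 and Col3a1 differed by -0.13 and -0.03, Postn and Ddr2 by -0.63 and -0.68, and Tcf21 by 0.38. The 8 macrophage markers, 5 of them lower, had a median difference of -0.06 (-0.36 without transgenic replicate 2, with all 8 lower). Their median was -1.16 in transgenic replicate 3 and 0.83 in transgenic replicate 2, against 0.30 and -0.30 in transgenic replicates 1 and 4. Their summed level was 12.88 to 14.78 in transgenic and 13.56 to 14.29 in wild-type hearts. Without transgenic replicate 3, Csf1r and Lyz2 differed by 0.33 and 0.42, and Ptprc and Cd14 by -0.89 and -0.58. The 8 endothelial markers were all higher on average in transgenic hearts, with a median difference of 0.29 (0.09 without transgenic replicate 2) and summed levels of 12.69 to 13.44 in transgenic and 12.44 to 12.99 in wild-type hearts. The 7 smooth muscle and pericyte markers had a median difference of -0.03, which was 0.84 for transgenic replicate 2, and summed levels of 14.16 to 14.81 in transgenic and 14.42 to 14.50 in wild-type hearts. Of 7 atrial markers 6 were measured, 4 of them higher, with a median difference of 0.63 (0.51 without transgenic replicate 2) and summed levels of 13.81 to 15.41 in transgenic and 14.84 to 15.39 in wild-type hearts, and Bmp10, a defining one, did not pass the filter. The atrial median was above the wild-type mean in all 4 transgenic arrays, at 0.15, 0.85, 0.66 and 0.42. In wild-type replicates 1 to 4 it was 0.41, -0.35, -0.23 and 0.01, so the groups overlapped. Myl7, also in the list of targets, and Stard10 had an unadjusted limma p under 0.05 (0.0101 and 0.0433, with adjusted p = 0.813 for both), beside 1.59% of all genes. Nppa and Pam were the lower ones, at -0.44 and -0.08, with Nppa at -2.03 in transgenic replicate 3. The median of the 10 heart muscle markers lay between -0.15 and 0.08 from the wild-type mean in each transgenic array, and 5 of them were higher. Most of these probe sets read close to the highest value on the arrays, 16.11, which limits what their differences can show, and Pln, Ryr2 and Ttn were at -1.52, -0.75 and -0.61 in transgenic replicate 2. Of 5 erythroid markers 1 was measured, Alas2, which differed by 0.27, and by -0.05, -0.07 and 0.92 without transgenic replicate 2, 3 and 4 in turn. The part of these differences in the values of Gata4, Tbx5, Hand2 and the other factors was not tested. In bulk tissue, fewer cells of a type and less RNA per cell cannot be told apart.

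**Figure D4:**
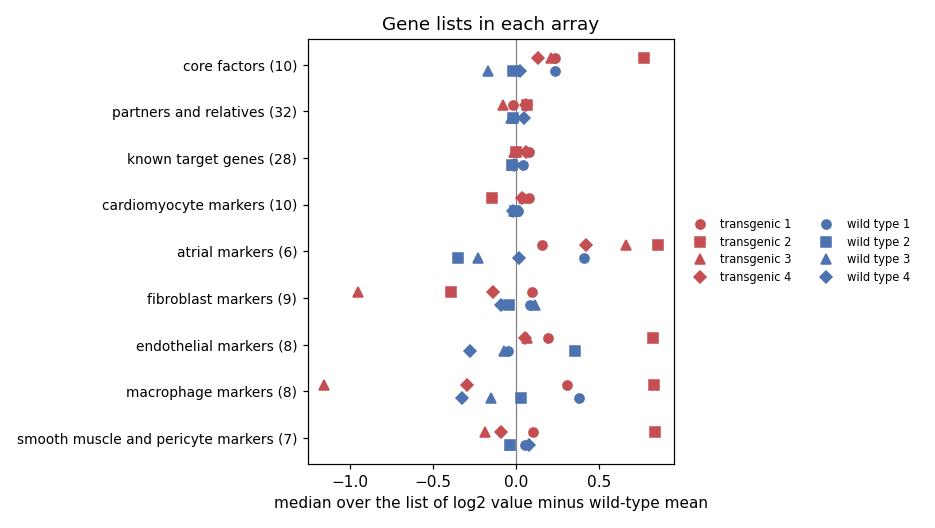
Median over each gene list of the log2 value minus the wild-type mean, 1 point per array (transgenic above wild type within each row, marker shape giving the replicate number), with the number of measured genes in brackets. The core factors lie between 0.13 and 0.77 in transgenic arrays and between -0.17 and 0.23 in wild-type arrays, while fibroblast and macrophage markers reach -0.95 and -1.16 in transgenic replicate 3.

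Genes with the most similar profiles were named by the smallest root mean square distance over the 8 arrays after centring each gene on its own mean. For Gata4 the nearest was Eif2ak1 (distance 0.128), for Gata6 Rab2a (0.0588), for Nkx2-5 Atic (0.0559), for Tbx5 Pigv (0.103) and for Tbx20 Prex2 (0.0748). Those of Mef2a, Mef2c, Hand2, Irx4 and Srf were Nampt (0.152), Kmt2e (0.0696), Cyth1 (0.0559), Atp5g2 (0.128) and Pcbp4 (0.0549). Each was the smallest of the distances to all genes by choice, and the profiles share the same 8 RNA samples and the departures of single arrays. With transgenic replicate 2 left out, the gene named remained among the 18 nearest of each factor and was still the nearest for Hand2. The arrays left had also served to choose these genes, so the ranks are no independent check. Within the set, Gata4 and Irx4 were nearest to each other (0.236), as were Nkx2-5 and Srf (0.230) and Gata6 and Mef2c (0.284).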

How the data were processed

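Ventricular RNA of 8 samples was hybridised to 1 Affymetrix array each. What the authors deposited are log2 values per probe set, made with GCRMA according to the submitters' processing notes (background correction by base composition, quantile normalization, probe set summary), with no version named. Quantile normalization keeps arrays on a common scale, and values of probe sets without signal are pulled to a low level. Of 45101 probe sets, 34958 carried 1 gene symbol in the platform annotation, 932 several and 9211 none, and the last groups were left out.

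The difference, transgenic minus wild type, came from limma 3.58.1 (lmFit and eBayes, R 4.3.3) across all 8 arrays with no blocking term, and p-values were adjusted by Benjamini and Hochberg's method over all genes at 0.05. Exact two-sided permutation tests of group means were run for single factors. The fit was checked on simulated data with independent normal noise, equal spread in both groups and no deviating array. These arrays differ from that setting, so the check does not cover the effect of a deviating array. Genes named beyond the factors were those with the 8 smallest p of each of the lists of partners and targets, the nearest profile of each factor, Hey2 and further partners and markers chosen after their values were seen. Members and lists were chosen with earlier results of these data known. Alternatives changed the filter, scaling, model, probe set rule and arrays used.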

Additional observations from a re-analysis of the deposited data

Results flagged for a closer look

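The 88 groups of 4 arrays examined were the 28 probe sets of the factors and 16 named genes, in each genotype. Of these, 10 held 1 array far from the other 3, and 5 of the 10 were transgenic replicate 2. Chance gives about 1 in 20 for independent groups, but these share arrays and some share a gene. The named genes were picked by small p, and the share flagged over all genes was not computed. Transgenic replicate 2 was the lowest or the highest array for 77.8% of all genes. In that array Tbx20 was 8.53 against at least 10.99 in the other 3 transgenic arrays, its second probe set 5.33 against at least 7.52, and the weaker probe set of Tbx5, which did not pass the filter, 3.79 against at most 3.04. Tead1 was 8.24 there against at least 10.93, and Ep300 7.57 against at least 9.08. In transgenic replicate 3, a probe set of Hand2 below the filter was 3.33 against at most 2.21, and Nppa 12.96 against at least 15.02. Among wild-type arrays, Mef2c was 10.68 in replicate 1 against at most 10.31, Tbx18 7.78 in replicate 1 against at most 7.48, and Mrtfb 8.85 in replicate 2 against at least 9.12.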

How the results depend on the processing

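None of the 10 factors was called under any alternative, at an adjusted p of 0.1, or with any array left out. The number of genes called was 0 in each except with array weights, where it was 1 and no factor (smallest adjusted p among the factors 0.258). There, 1529 of the 9608 genes had an unadjusted p under 0.05, and 4 of the 10 factors, Gata4, Nkx2-5, Tbx5 and Mef2c. The weighted differences of Gata6, Mef2c and Irx4 were 0.13, 0.29 and 0.41. Those of transgenic replicate 1 alone from the wild-type mean were 0.12, 0.29 and 0.41. For Gata4 these values were 0.55 and 0.41. How far the weighted fit rests on that 1 array was not tested. Without wild-type replicate 1, 142 of the 9608 genes had an unadjusted p under 0.05. Gata4 was the 1 factor among them (difference 0.69, limma adjusted p = 0.878). The array left out there was the highest wild-type one for Gata4, at 9.36. Samples that share a replicate number had positively correlated deviations in 2 of 4 pairs (correlations 0.30, -0.01, -0.33 and 0.20), so the numbers were not taken as pairs. The replicate block cannot move differences in this balanced design (factors' median 0.31); it gave 0 calls and 147 genes at an unadjusted p under 0.05. Leaving out single arrays gave 6 to 10 factors higher, the 10 without transgenic replicate 2. It moved the differences of Gata6 between -0.26 and 0.0113, of Tbx20 between -0.89 and 0.0368, of Mef2a between -0.52 and 0.0162 and of Mef2c between -0.42 and 0.13. Without transgenic replicates 2 and 3, Mef2c was at 0.24 and Hand2 at -0.17. With array weights the sign turned for Gata6 (0.13), Mef2a (0.25), Mef2c (0.29), Hand2 (-0.22) and Srf (-0.15); the cause was not tested. Other probe sets turned the sign for Gata6 (0.0813) and, below the filter, Mef2a (0.16). Gata4, Nkx2-5, Tbx5 and Irx4 kept their sign throughout. A filter above 7 left out Tbx5. With 4 arrays a group, confidence intervals (95%) extended a median of 0.606 from the difference over all genes, which limits what could be seen.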
